A study of Arabidopsis thaliana with 60 samples.

Results

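PYK10 (AT3G09260) and JAL23 (AT2G39330) are the subject here: a beta-glucosidase gene and the gene of a jacalin-related lectin, followed through the leaves of Arabidopsis thaliana. They are 2 of the 13286 genes to which the annotation used here gives a probe set of their own. That annotation leaves 8730 probe sets unnamed, so a gene outside this count may still be on the array. PYK10 and JAL23 have 1 probe set each, taken because the array's annotation gives that probe set the one symbol. Both genes were chosen by their MAS5 signal across the 20 leaf groups. Their levels and differences are therefore given as a description, with no test. In the RefSeq gene order, JAL23 lies 1 gene away from its relative JAL22 (AT2G39310), with AT2G39320 between them, and SAC3A is on its other side. PYK10 lies between AT3G09250 and the glutathione transferase gene GSTU8.

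PYK10, also called BGLU23, is the main protein of ER bodies, compartments that plants of the cabbage order form from the endoplasmic reticulum. The ER bodies hold beta-glucosidases away from their substrates, and damage to the cell lets enzyme and glucosides such as indole glucosinolates meet, which belongs to the plant's defence against herbivores and microbes. ER bodies are known above all from seedlings and roots, and wounding can bring them out in rosette leaves. The transcription factor NAI1 and the ER body protein NAI2 are needed to form them, and jacalin-related lectins occur in the large complexes that PYK10 enters when tissue is homogenized.

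Whole leaves or leaf parts were measured on 60 arrays, 3 for each of 20 groups. Wild-type plants of the accession Col-0 on soil in continuous light at 23 °C gave cotyledons, leaves 1 and 2, leaf 4 at 1 cm length, rosette leaves 2, 4, 6, 8, 10 and 12, 3 pieces of leaf 7 (petiole, proximal blade, distal blade), cauline leaves from the flowering stem, and leaves in senescence. The line gl1T gave leaf 4 at 1 cm and leaf 12 under the same light, temperature and soil, which makes 16 groups in continuous light. The labels describe gl1T no further than its name and, for leaf 12, a Col-0 background. A further 3 sets, numbered 87, 89 and 90, were vegetative rosettes of Col-0 grown in 10 h of light a day at 22 °C. Set 87 and set 89 grew on soil, and for set 90 no substrate is stated. The last group was Col-0 leaves from long-day plants at 22 °C on MS medium with 1% sucrose. What sets 87, 89 and 90 apart from each other is not given in the sources used here. In this design the short-day sets differ from the continuous-light groups in day length, temperature and tissue at once, and set 90 may differ in substrate too. The sucrose group differs from them at least in day length, temperature and substrate at once. The parts of these factors cannot be told apart.

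The values are MAS5 signals on a linear, arbitrary scale, and every array has the same trimmed mean. Median signal ran from 32.2 to 40.01, and the correlation r between arrays within a group was 0.981 to 0.992. The ratio of the 3' to the 5' signal of the GAPDH control, which depends on RNA integrity, was 1.13 to 1.27 on the short-day arrays, 1.02 to 1.09 on the sucrose arrays and 0.932 to 1.97 on the others. A signal below the 40th percentile of its own array, which lay between 17.5 and 23.9, is called low here. The annotation named 3 of 10 listed leaf markers (RCA, LHCB4.1 and PSAN), and their summed signal was 4415 to 15282. Of 16 listed root markers it named 2, the root hair expansin genes EXPA7 and EXPA18. Their summed signal was 15.2 to 36.3 on the short-day arrays, 28.4 to 36.1 on the sucrose arrays and 5.73 to 44.5 on the continuous-light arrays, and on no array were both above the low range. Whole organs were ground for RNA, so a lower signal from fewer cells of a type cannot be told from less RNA per cell.

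PYK10 signal was highest in the short-day rosettes and the sucrose-grown leaves, intermediate in the earliest organs of the soil plants and low in most later leaves. In set 87 the 3 arrays gave 2118, 2116 and 2031, a mean of 2088 ± 49.9 (SD, n = 3 here and throughout). Set 89 gave 1360, 1450 and 1376 (1396 ± 48.2), and set 90 gave 895, 937 and 831 (887 ± 53.8). The sucrose-grown leaves gave 826, 804 and 854 (828 ± 25.02). All 12 of these arrays lay above all 48 arrays of the continuous-light groups, while set 90 and the sucrose leaves overlapped each other.

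Among the continuous-light groups the cotyledons were highest in PYK10, with 297, 247 and 273 (272 ± 24.7). Rosette leaf 2 followed with 124, 146 and 92.4 (121 ± 26.8). Leaves 1 and 2 gave 80.2, 65.7 and 68.2 (71.4 ± 7.72), and leaf 4 at 1 cm gave 51.8, 49.9 and 53.8 (51.8 ± 1.95). None of these groups overlapped the next in order, and all their arrays were above the low range. The petiole of leaf 7 came next at 25.4 ± 2.95, followed by rosette leaf 10 at 23.8 ± 1.87, leaf 12 at 23.6 ± 7.15, leaf 4 at 21.5 ± 2.24, leaf 6 at 19.4 ± 4.14 and gl1T leaf 12 at 18.2 ± 5.49. From the petiole downwards every group overlapped the next, so their order is not resolved. The lowest means were those of leaf 8 (11.6 ± 5.90), gl1T leaf 4 (11.1 ± 1.33), senescing leaves (10.8 ± 1.87), the distal (10.4 ± 3.04) and proximal (8.88 ± 1.93) blade of leaf 7 and cauline leaves (8.94 ± 5.80), and all 18 arrays of these groups were in the low range. Of the 19 pairs of neighbours in the order over all groups, 7 did not overlap.

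**Figure D1:**
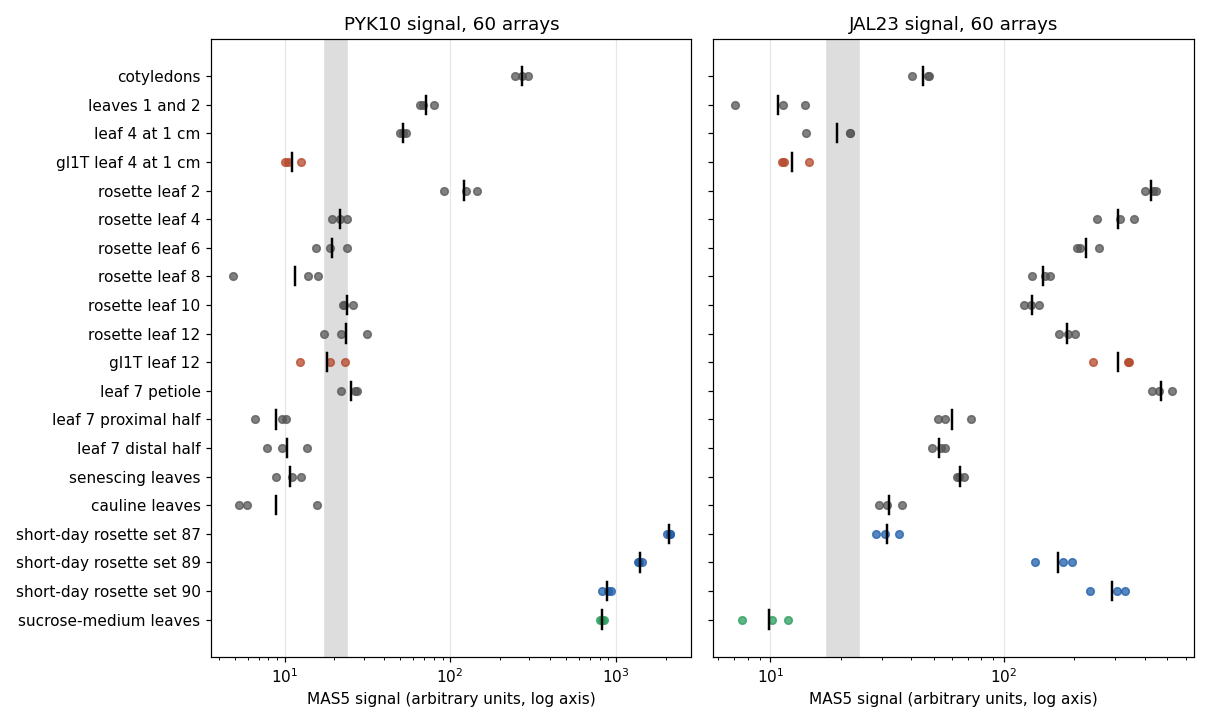
MAS5 signal of PYK10 (left) and JAL23 (right) on each of the 60 arrays, on a log axis, by group. Points are arrays, black bars group means (n = 3), and the grey band spans the 40th percentiles of the arrays (17.5 to 23.9). Blue marks the short-day sets, green the sucrose-grown leaves and red gl1T. PYK10 is higher on every blue and green point (804 to 2118) than on any other (at most 297), whereas JAL23 is highest in the petiole and rosette leaf 2.

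JAL23 had a different order. Its signal was highest in the petiole of leaf 7, with 523, 430 and 461 (471 ± 47.3), and in rosette leaf 2, with 434, 446 and 400 (427 ± 23.6), and these groups overlapped. Next came gl1T leaf 12 with 242, 341 and 343 (309 ± 58.0), rosette leaf 4 with 361, 250 and 314 (308 ± 55.8) and short-day set 90 with 304, 233 and 329 (289 ± 50.0). Each of these overlapped the next. Rosette leaf 6 stood at 225 ± 27.4, leaf 12 at 187 ± 14.7, short-day set 89 at 170 ± 30.7, leaf 8 at 147 ± 12.8 and leaf 10 at 131 ± 9.58.

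Below these groups the JAL23 signal was 72.5 or less on every array. Senescing leaves (64.8 ± 2.30) and the proximal (60.1 ± 10.8) and distal (52.9 ± 3.38) blade of leaf 7 overlapped. Cotyledons gave 47.7, 40.4 and 47.3 (45.1 ± 4.12), cauline leaves 32.4 ± 3.75 and short-day set 87 gave 28.4, 30.9 and 35.7 (31.6 ± 3.73). The lowest signals were those of leaf 4 at 1 cm (19.3 ± 4.40), gl1T leaf 4 (12.4 ± 1.93), leaves 1 and 2 (10.8 ± 3.51) and the sucrose-grown leaves (11.9, 7.56 and 10.2, mean 9.88 ± 2.20). All 12 arrays of those groups were in the low range and the groups overlapped in sequence. Of 19 neighbouring pairs, 6 did not overlap.

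Differences are given from here on as log2 differences ± SE of log2(signal + 6.139) from a limma fit to all 20 groups. The added 6.139 keeps dim signals from dominating and makes a fold of a dim gene smaller than its ratio of signals. On this scale the group means of PYK10 spanned 7.18, wider than 99.9% of the 15808 probe sets bright enough to be tested, and those of JAL23 spanned 4.90, wider than 97.6%. Both genes were chosen by their signal in these groups, so these ranks follow in part from the choice. Over the 20 group means the Pearson correlation of the 2 genes was -0.0992, and over the 16 continuous-light groups it was -0.0152. These values describe the groups, which share growth conditions and organs, and carry no p. The highest JAL23 group, the petiole, had 25.4 for PYK10, and the highest PYK10 group, set 87, had 31.6 for JAL23. Rosette leaf 2 and short-day sets 89 and 90 combined a PYK10 signal over 90 with a JAL23 signal over 130 on every array.

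**Figure D2:**
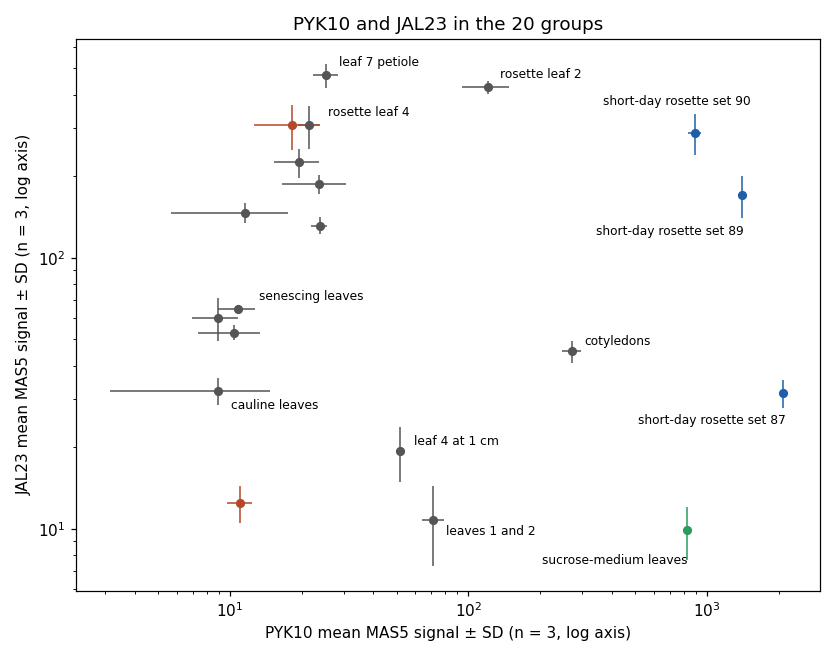
Mean MAS5 signal of PYK10 (horizontal, log axis) and of JAL23 (vertical, log axis) in each of the 20 groups, with SD over 3 arrays as bars. Colours are blue for short-day sets, green for sucrose-grown leaves, red for gl1T and grey for the other groups. The groups do not fall along a line: sets 87, 89 and 90 have PYK10 means of 2088, 1396 and 887 with JAL23 means of 31.6, 170 and 289.

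Of 20 genes listed for ER bodies and the PYK10 complex, 7 had a probe set of their own in the annotation: PYK10, JAL23, NAI1 (AT2G22770), NAI2 (AT3G15950) and the lectin genes JAL22, JAL33 (AT3G16450) and JAL34 (AT3G16460). All 7 passed the filter on low signal, NAI1 only through the short-day sets, and the 13 others were not analysed here. The 5 genes other than PYK10 and JAL23 all had their highest mean in short-day set 87. The factor NAI1 gave 91.4, 73.8 and 64.5 there (76.6 ± 13.7), and NAI2 gave 392, 362 and 379 (377 ± 15.1). JAL22 gave 302, 286 and 302 (297 ± 8.81), JAL33 gave 349, 416 and 377 (381 ± 33.4), and JAL34 gave 853, 993 and 730 (859 ± 131). In the sucrose-grown leaves the means were 19.5 ± 1.41 for NAI1, 137 ± 22.3 for NAI2, 149 ± 8.24 for JAL22, 131 ± 9.31 for JAL33 and 236 ± 19.7 for JAL34. In most continuous-light groups NAI1, JAL22 and JAL33 were in the low range on every array. The exceptions with all 3 arrays above it were cotyledons and rosette leaf 2 for JAL22 (26.8 ± 1.21 and 27.5 ± 2.16) and for JAL33 (86.3 ± 3.53 and 59.7 ± 8.88), and there was none for NAI1.

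The genes whose group means were most like those of PYK10 were ranked by Pearson correlation over the 20 groups, among 2797 named and tested probe sets with a span of at least 2. NAI2 (0.970), JAL22 (0.969), JAL33 (0.969) and JAL34 (0.946) led, followed by the vacuolar sugar transporter gene SWEET16 (AT3G16690, 0.932), AT1G14120 (0.915), AT1G20030 (0.898) and AT3G20370 (0.897). NAI1 stood at 0.866. All 8 leading genes had their highest mean in set 87, for example 111 for SWEET16 and 471 for AT3G20370. PYK10 itself peaked there, so this follows largely from how the genes were ranked. Within the 16 continuous-light groups, where much of the signal is low, the correlation with PYK10 was 0.898 for NAI2, 0.885 for JAL22, 0.859 for JAL33, 0.855 for JAL34 and 0.643 for NAI1.

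JAL23 was not among these. Its correlation with NAI1, NAI2, JAL22, JAL33 and JAL34 lay between -0.0871 and -0.0211 over the 20 groups, and with JAL22, its close neighbour on the chromosome, it was -0.0363 (0.264 over the 16 continuous-light groups). The genes most like JAL23 were AT1G06640 (0.863), AT1G31550 (0.825), AT4G10270 (0.753), AT3G23090 (0.738), AT3G50280 (0.721), AT5G11410 (0.704), AT4G29700 (0.698) and AT1G54020 (0.678). Of these AT1G06640 was highest in the petiole (865) and lowest in gl1T leaf 4 (148), and AT1G31550 was highest in short-day set 90 (307) and lowest in the sucrose-grown leaves (31.0).

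**Figure D3:**
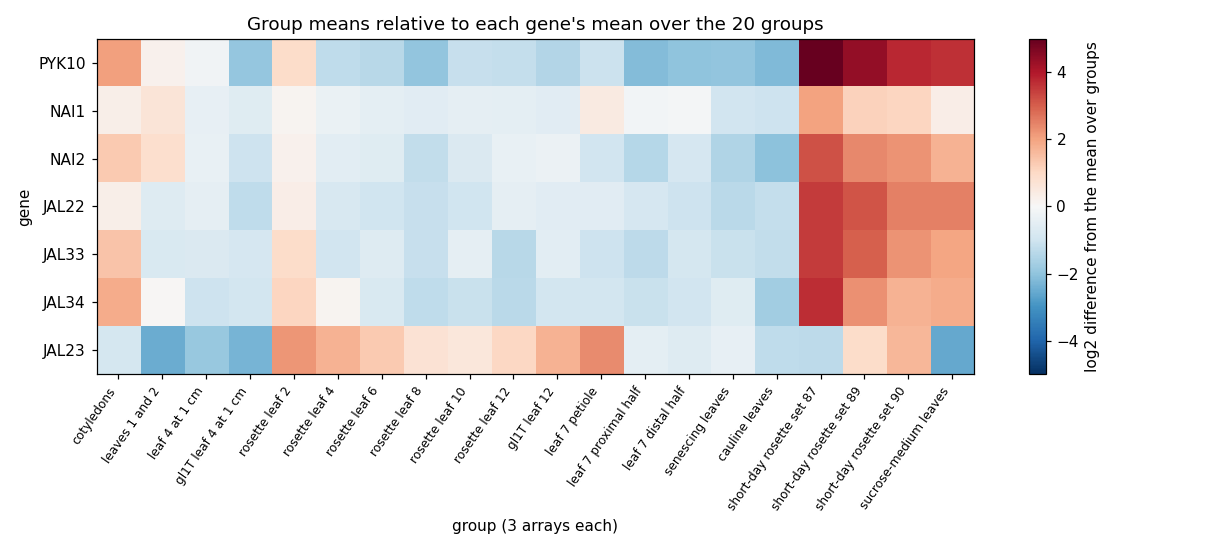
Group means of log2(signal + 6.139) for 7 genes, each shown as the difference from that gene's mean over the 20 groups (colour scale, log2). Each cell is the mean of 3 arrays. PYK10 and the 5 genes below it are reddest in short-day set 87, whereas JAL23, in the bottom row, is reddest in rosette leaf 2 and the leaf 7 petiole and blue in set 87 and the sucrose-grown leaves.

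The short-day rosettes were compared with the rosette leaves of continuous-light plants, the mean of sets 87, 89 and 90 against that of rosette leaves 2 to 12. This comparison was added after the signals had been seen. All 5 other ER body genes rose, where limma called 7.83% of all tested probe sets higher. JAL22 (3.74 ± 0.085, adjusted p = 1.56e-40), JAL33 (3.51 ± 0.12, adjusted p = 4.995e-32), NAI2 (3.14 ± 0.066, adjusted p = 4.485e-42) and JAL34 (3.12 ± 0.068, adjusted p = 2.337e-41) rose, and NAI1 differed by 1.78 ± 0.13. For each of them all 9 short-day arrays lay above all 18 arrays of leaves 2 to 12. NAI1 passed the filter on low signal only through the short-day sets, where it was high. Its place among the 5 therefore follows in part from the filter, and its difference is a description. The median of the 5 was 3.14 and that of all tested probe sets 0.042. PYK10 differed by 5.38 ± 0.093 and JAL23 by -0.85 ± 0.073. For JAL23 the arrays overlapped, since set 87 lay below every rosette leaf array and sets 89 and 90 lay within their range.

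The 3 short-day sets were not alike. PYK10 was lower in set 90 than in set 87 by a log2 difference of -1.23 ± 0.19, and JAL23 was higher by 2.96 ± 0.15, a fold of 7.76. For both genes the means of the 3 sets were in the sequence 87, 89, 90, in opposite directions, and no array of set 87 overlapped either other set. JAL34 (-1.92 ± 0.14, adjusted p = 1.579e-17) and JAL33 (-1.24 ± 0.24, adjusted p = 2.474e-05) fell in set 90 against set 87, 2 of the 5 genes against 4.04% of tested probe sets (median of the 5 genes -0.96, of all tested 0.14). The differences of JAL22 (-0.96 ± 0.17), NAI1 (-0.95 ± 0.27) and NAI2 (-0.94 ± 0.13) had adjusted p below 0.05 but did not reach the required size of 1. JAL22 just did with a replicate block, and NAI1 without array C of set 87 (-1.06) or array A of set 90 (-1.03). PDF1.2 (AT5G44420), a defensin gene that responds to jasmonate and ethylene, rose over the same pair of sets, from 7.10 to 153 (3.58 ± 0.14, adjusted p = 1.992e-28). It was the only gene of 13 on the jasmonate list to which the annotation gives a probe set of its own. Over the 18 comparisons PDF1.2 rose in 8 and fell in 4. The photosystem gene PSAN had a difference of -0.60 ± 0.096 here. None of the 3 leaf markers reached the required size (limma, 3 at unadjusted p below 0.05 and 3 after adjustment).

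The sucrose-grown leaves were compared with leaves 1 and 2 of the soil plants. JAL22 (3.17 ± 0.17, adjusted p = 2.861e-22), JAL33 (2.73 ± 0.24, adjusted p = 5.659e-14) and JAL34 (1.80 ± 0.14, adjusted p = 1.849e-16) rose, 3 of 5 genes against 4.83% of tested probe sets (median of the 5 genes 1.80, of all tested 0.049). NAI2 had a difference of 0.88 ± 0.13 (adjusted p = 1.502e-07), under the required size (1.01 without array B of the sucrose leaves), and NAI1 one of -0.31 ± 0.27 (adjusted p = 0.3661) with overlapping arrays. PYK10 was higher by 3.43 ± 0.19, a fold of 10.8. JAL23 was in the low range in both groups and its arrays overlapped (-0.07 ± 0.15). Against short-day set 87, also added later, the sucrose-grown leaves were lower in PYK10 (-1.33 ± 0.19) and JAL23 (-1.24 ± 0.15). In that comparison 4 of the 5 other genes fell against 2.3% of tested probe sets, NAI1 (-1.68 ± 0.27), NAI2 (-1.43 ± 0.13), JAL33 (-1.49 ± 0.24) and JAL34 (-1.83 ± 0.14), and JAL22 had -0.96 ± 0.17. The fall of NAI1 follows in part from the filter on low signal, which it passed only through the short-day sets.

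**Figure D4:**
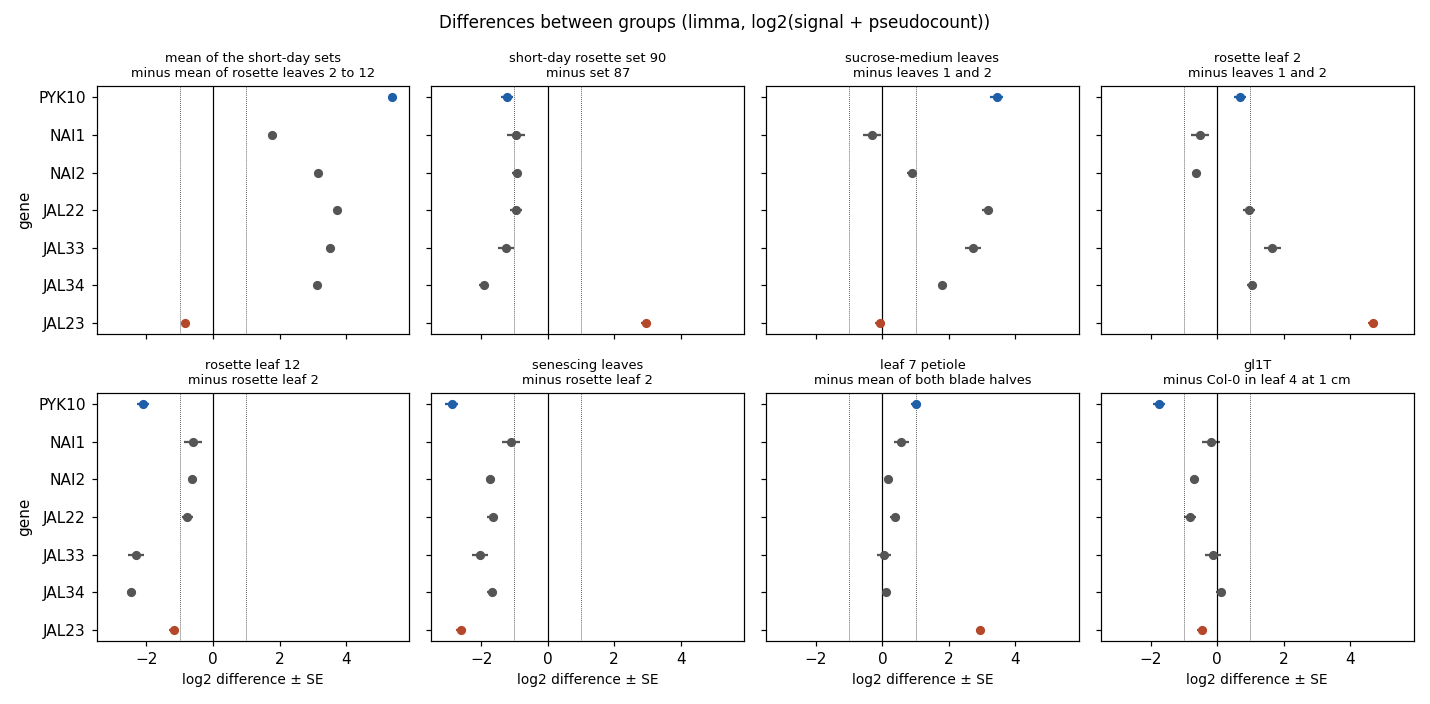
Log2 differences ± SE (horizontal) from the limma fit for PYK10 (blue), JAL23 (red) and 5 other ER body genes (grey) in 8 comparisons, with dotted lines at -1 and 1. PYK10 and JAL23 are described without a test. In the top row JAL23 stands apart from the others in the change from set 87 to set 90 (2.96 against -1.23 for PYK10) and in rosette leaf 2 against leaves 1 and 2 (4.69 against 0.69).

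In the first organs of the soil plants PYK10 was lower in leaves 1 and 2 than in cotyledons (-1.85 ± 0.19), and so was JAL23 (-1.62 ± 0.15). JAL33 (-2.16 ± 0.24, adjusted p = 5.491e-11) and JAL34 (-1.82 ± 0.14, adjusted p = 6.999e-17) fell, 2 of 5 against 6.99% of tested probe sets (medians -0.93 and -0.0042). JAL22 had -0.93 ± 0.17, NAI2 -0.43 ± 0.13 and NAI1 0.37 ± 0.27. From leaves 1 and 2 to leaf 4 at 1 cm, PYK10 differed by -0.41 ± 0.19 and JAL23 by 0.59 ± 0.15, with JAL23 in the low range in both. NAI2 (-1.22 ± 0.13, adjusted p = 6.869e-11), JAL34 (-1.09 ± 0.14, adjusted p = 3.258e-09) and NAI1 (-1.06 ± 0.27, adjusted p = 0.001305) fell there, 3 of 5 against 2.68% of tested probe sets (medians -1.06 and 0.085). NAI1 had -0.96 to -0.93, below the required size, without array C of leaves 1 and 2 or without array A or B of leaf 4. The labels state that soil was present on the Col-0 samples of leaf 4 at 1 cm, and its part in these values was not tested.

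Rosette leaf 2 was set against leaves 1 and 2, a comparison added after the signals had been seen. JAL23 signal was 14.0, 11.3 and 7.07 in leaves 1 and 2 and at least 400 on each array of rosette leaf 2, a difference of 4.69 ± 0.15 and a fold of 25.9. PYK10 was higher by 0.69 ± 0.19, a fold of 1.62. JAL33 (1.66 ± 0.24, adjusted p = 3.444e-08) and JAL34 (1.04 ± 0.14, adjusted p = 2.07e-09) rose, 2 of 5 against 12.6% of tested probe sets, while NAI2 had -0.62 ± 0.13 and NAI1 -0.51 ± 0.27. The call of JAL34 lay near the required size of 1 and was lost without array B of rosette leaf 2 (0.97).

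Along the rosette of the continuous-light plants both genes were highest in leaf 2. PYK10 was lower by -2.18 ± 0.19 in leaf 4, a fold of 4.53, and lay between 4.89 and 31.4 on the arrays of leaves 4 to 12. JAL23 differed by only -0.48 ± 0.15 between leaf 2 and leaf 4, and its means were lower from leaf to leaf down to leaf 10 (131 ± 9.58) and were higher again in leaf 12 (187 ± 14.7), labelled as about 1 cm long, whose arrays lay above all of leaf 10. JAL23 arrays of leaf 4 overlapped those of leaf 6, and arrays of leaf 8 those of leaf 10, so these steps are not resolved. Between leaf 2 and leaf 4, a comparison added after the signals had been seen, JAL33 (-1.89 ± 0.24, adjusted p = 9.903e-09) and JAL22 (-1.12 ± 0.17, adjusted p = 4.685e-07) fell, 2 of 5 against 1.65% of tested probe sets. JAL34 had -0.97 ± 0.14 (-1.07 without array C of leaf 2), NAI2 -0.74 ± 0.13 and NAI1 -0.48 ± 0.27.

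Between leaf 2 and leaf 12, PYK10 was lower by -2.10 ± 0.19 and JAL23 by -1.17 ± 0.15. JAL34 (-2.46 ± 0.14, adjusted p = 1.763e-22) and JAL33 (-2.31 ± 0.24, adjusted p = 4.08e-12) fell, 2 of 5 against 11.5% of tested probe sets (medians -0.77 and 0.018). JAL34 stood at 138 ± 17.8 in leaf 2, 67.0 ± 0.824 in leaf 4, 33.9 ± 2.42 in leaf 6 and between 20.0 and 25.2 in leaves 8, 10 and 12. The comparisons with leaf 2, here and below, share its 3 arrays.

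Leaf 4 was measured at 1 cm and again in the rosette series, and the 2 genes differed in opposite directions. JAL23 was higher in rosette leaf 4 by 3.63 ± 0.15, a fold of 12.3, from arrays at 14.2 to 21.9 to arrays at 250 to 361. PYK10 was lower by -1.07 ± 0.19. JAL34 rose (1.17 ± 0.14, adjusted p = 8.939e-11), 1 of 5 genes against 12.9% of tested probe sets, and the others had differences of -0.33 to 0.07. JAL34 had 0.94, below the required size, when the array of rosette leaf 6 whose tissue label reads leaf 4 was moved to leaf 4. Leaf 12, also labelled as about 1 cm, was likewise higher in JAL23 (2.93 ± 0.15) and lower in PYK10 (-0.99 ± 0.19). Of the 5 other genes none was called there (limma, 2 at unadjusted p below 0.05 and 1 after adjustment), where 4.57% of tested probe sets were called in either direction.

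In senescing leaves all 7 genes were lower than in rosette leaf 2. PYK10 differed by -2.89 ± 0.19 and JAL23 by -2.61 ± 0.15, a fold of 6.10. All 5 other genes fell, against 12.3% of tested probe sets (medians -1.68 and 0.074): JAL33 (-2.03 ± 0.24, adjusted p = 1.78e-10), NAI2 (-1.73 ± 0.13, adjusted p = 6.573e-17), JAL34 (-1.68 ± 0.14, adjusted p = 5.008e-16), JAL22 (-1.66 ± 0.17, adjusted p = 1.797e-12) and NAI1 (-1.11 ± 0.27, adjusted p = 0.0002792). NAI1 had -0.89, below the required size, without array A of the senescing leaves. It was in the low range on every array of both groups, with means of 4.43 in senescing leaves and 16.2 in rosette leaf 2. PYK10 in senescing leaves was within the range of leaves 4 to 12, whereas JAL23 (62.8, 67.3 and 64.4) was below every rosette leaf array. Of the leaf markers PSAN (-2.50 ± 0.096, adjusted p = 1.061e-29) and LHCB4.1 (-1.69 ± 0.083, adjusted p = 7.089e-25) fell in the same comparison, and the part of this in the ER body values was not tested.

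Cauline leaves were compared with rosette leaf 12. JAL23 was lower by -2.33 ± 0.15, a fold of 5.02, with arrays at 29.1 to 36.5 against 172 to 201. PYK10 was at 5.29, 15.6 and 5.92 in cauline leaves and differed by -1.02 ± 0.19, a value that was -1.32 without array B of the cauline leaves and -0.53 with an addend 4 times larger. NAI2 fell (-1.67 ± 0.13, adjusted p = 2.045e-16), 1 of 5 genes against 14.3% of tested probe sets. JAL22 had -0.75 ± 0.17, NAI1 -0.55 ± 0.27, JAL34 -0.36 ± 0.14 and JAL33 0.14 ± 0.24.

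Within leaf 7 the petiole was set against the mean of both parts of the blade. JAL23 was higher in the petiole by 2.93 ± 0.13, a fold of 7.64, with all petiole arrays at 430 or above and all blade arrays at 72.5 or below. PYK10 was higher by 1.01 ± 0.16, with 27.4, 26.8 and 22.0 in the petiole and 6.67 to 13.8 in the blade, so that the petiole arrays were just above the low range and the blade arrays within it. None of the 5 other genes was called (limma, 2 at unadjusted p below 0.05 and 2 after adjustment), where 6.93% of tested probe sets were (medians 0.17 and 0.038). Their differences were 0.57 ± 0.23 for NAI1, 0.38 ± 0.15 for JAL22, 0.17 ± 0.12 for NAI2, 0.12 ± 0.12 for JAL34 and 0.04 ± 0.21 for JAL33. Between the distal and the proximal blade PYK10 (0.13 ± 0.19) and JAL23 (-0.16 ± 0.15) overlapped. None of the 5 was called (limma, 1 at unadjusted p below 0.05 and 1 after adjustment, NAI2 with 0.58 ± 0.13), where 0.62% of tested probe sets were.

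For gl1T, the partner groups were the Col-0 leaves of the same position. In leaf 4 at 1 cm, PYK10 gave 12.6, 10.1 and 10.5 in gl1T against 51.8, 49.9 and 53.8 in Col-0. The difference was -1.76 ± 0.19, a fold of 3.38, and the arrays did not overlap. JAL23 was in the low range in both and overlapped (-0.45 ± 0.15). NAI2 (-0.69 ± 0.13, adjusted p = 3.319e-05) and JAL22 (-0.81 ± 0.17, adjusted p = 0.0001311) had lower arrays without overlap but did not reach the required size, so none of the 5 genes was called (limma, 2 at unadjusted p below 0.05), where 3.95% of tested probe sets were. JAL22 was in the low range on every array of both groups. NAI1 (-0.19 ± 0.27), JAL33 (-0.13 ± 0.24) and JAL34 (0.11 ± 0.14) overlapped. PDF1.2 rose in gl1T (1.75 ± 0.14, adjusted p = 1.044e-15). The soil noted for the Col-0 samples concerns this comparison too.

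In leaf 12 PYK10 overlapped between gl1T and Col-0 (-0.29 ± 0.19), and JAL23 was higher in gl1T without overlap (0.69 ± 0.15). On gl1T arrays A, B and C the GAPDH ratio was 1.97, 1.11 and 0.932, and the JAL23 signal 242, 341 and 343. The part of RNA integrity in these values was not tested. Col-0 leaf 12 is labelled as about 1 cm long, whereas no length is stated for gl1T leaf 12. The part of leaf length was not tested either. None of the 5 other genes was called (limma, 2 at unadjusted p below 0.05 and 2 after adjustment, JAL33 with 0.86 ± 0.24, or 1.15 without array A of Col-0 leaf 12, and JAL34 with 0.44 ± 0.14), where 3.82% of tested probe sets were. The gl1T difference in leaf 12 minus that in leaf 4 was 1.46 ± 0.26 for PYK10 and 1.14 ± 0.21 for JAL23, given as a description. Of the 5 other genes none reached the required size in this difference (limma, 3 at unadjusted p below 0.05 and 3 after adjustment), where 8.2% of tested probe sets were called. NAI2 had 0.78 ± 0.19, JAL22 0.70 ± 0.24 and JAL33 0.99 ± 0.35, and JAL22 and JAL33 were in the low range on every array involved.

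Other beta-glucosidase genes give the family background. Of 38 listed, 20 had a probe set of their own in the annotation and 11 were bright enough to be tested. In the short-day rosettes none of the 11 was called against rosette leaves 2 to 12 (limma, 11 at unadjusted p below 0.05 and 11 after adjustment), against 16.8% of all probe sets in either direction. All were under the required size of 1, since their differences ran from -0.83 to 0.88, BGLU15 (AT2G44450) being the highest and BGLU31 (AT5G24540) the lowest. In the sucrose-grown leaves none was called either (limma, 7 at unadjusted p below 0.05 and 7 after adjustment), against 7.21% of all probe sets, the highest being BGLU44 (AT3G18080, 0.999 ± 0.083), just under the required size. BGLU28 (AT2G44460), a gene known to rise in sulfur deficiency, stood at 201 in rosette leaf 2, 9.23 in leaves 1 and 2 and 8.55 in leaf 4. It rose from leaves 1 and 2 to rosette leaf 2 (3.77 ± 0.25, adjusted p = 1.493e-19) and fell from there to leaf 4 (-3.86 ± 0.25, adjusted p = 1.161e-18). BGLU45 (AT1G61810) and BGLU47 (AT4G21760), of the group linked to lignin precursors, did likewise (1.51 ± 0.19 and 1.47 ± 0.14, then -1.24 ± 0.19 and -1.07 ± 0.14). The last value was -0.94 without array A of leaf 4. Mean signals of BGLU45 were 27.1 in rosette leaf 2 and, in the low range, 5.54 in leaves 1 and 2 and 8.05 in leaf 4. BGLU33 (AT2G32860) did the opposite (-1.02 ± 0.11, then 1.16 ± 0.11), its first value being -0.88 without array A of leaves 1 and 2 and -0.98 without array B of rosette leaf 2. In the petiole BGLU47 (1.70 ± 0.12) and BGLU33 (1.33 ± 0.093) rose and BGLU31 (-1.12 ± 0.21) fell against the blade, where 6.93% of all probe sets were called. The mean signals in petiole and blade were 91.1 and 23.8 for BGLU47 and 416 and 164 for BGLU33. Those of BGLU31 were 0.49 and 8.53, both in the low range, so its fall is a difference between dim signals. From leaf 2 to leaf 12, BGLU28 (-2.57 ± 0.25), BGLU47 (-1.56 ± 0.14) and BGLU45 (-1.46 ± 0.19) fell, 3 of 11 against 11.5% of all probe sets. BGLU45 had a mean of 6.06 in leaf 12, and its difference was -0.76, below the required size, with an addend 4 times larger. In senescing leaves 4 of 11 fell, against 12.3% of all probe sets, among them BGLU28 (-4.36 ± 0.25) and BGLU16 (AT3G60130, -2.16 ± 0.075), and BGLU31 rose (2.02 ± 0.25), 1 of 11 against 10.6%.

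For the substrates of PYK10, the annotation gave 1 of 16 listed genes of indole glucosinolate synthesis a probe set of its own, UGT74B1 (AT1G24100), which adds the glucose in the core pathway. Its signal ran from 175 ± 19.5 in leaf 12 to 507 ± 47.7 in the petiole, so it was never in the low range. It fell from cotyledons to leaves 1 and 2 (-1.01 ± 0.10, adjusted p = 1.7e-12), a call at the edge of the required size (-0.97 to -0.99 without array A of the cotyledons or array B or C of leaves 1 and 2), and it was not called in the other 17 comparisons. Its difference was 0.83 ± 0.088 for the petiole against the blade, 0.22 ± 0.051 for the short-day rosettes against rosette leaves 2 to 12 and -0.71 ± 0.10 for set 90 against set 87. Specifier and myrosinase-associated proteins, 9 genes listed, were not analysed here.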

How the data were processed

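For each probe set the authors deposited one MAS5 signal, a linear intensity, as the submitters' processing notes name it. The MAS5 version is not given in the sources used here. The mean left after trimming 2% at each end was 100 on every array, and no further normalization was applied. Groups came from the labels. One array of set 14 has a tissue label reading leaf 4 and was kept with rosette leaf 6. Whether the 3 arrays of a group stand for different plants is not labelled, so p-values cover the spread of these arrays alone, and that spread may be technical.

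Of 22810 probe sets, 64 controls were left out. Of the others, 13513 have 1 gene in the array annotation, 503 have several and 8730 stay unnamed. Values were log2(signal + 6.139), the median over arrays of the 20th percentile. Testing covered the 15808 probe sets (8620 named) that exceed the 40th percentile of the array in all 3 arrays of some group. limma 3.58.1 (R 4.3.3, eBayes with trend) was fitted to all 20 groups with 40 residual degrees of freedom, and a call needed both p below 0.05 after Benjamini-Hochberg adjustment and a log2 difference of 1 or more in size. The code was tested on simulated data.

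PYK10, JAL23 and the 7 gene lists (122 genes) were chosen with earlier results of these data known. Of other lists, at most 4 called genes per comparison without overlap were named, and the 8 genes most like each of PYK10 and JAL23. Of 18 comparisons, 4 were added after the signals had been seen. Same-letter arrays correlated weakly (44 pairs in 15 comparisons, r -0.0877 to 0.078, none over 0.1), so no block was used in the main fit. Comparisons with a mean of groups, among them petiole against blade, were not checked for pairing. Alternatives were other addends, filters, quantile normalization, a replicate block, placing the set 14 array with leaf 4, and omitting single arrays. No sequences are printed. Neighbouring genes came from RefSeq (TAIR10.1). Figures used matplotlib 3.10.9 in Python 3.11.15.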

Additional observations from a re-analysis of the deposited data

Results flagged for a closer look

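In 4 flagged genes the difference between gl1T and Col-0 was not the same in leaf 12 as in leaf 4 at 1 cm, by limma's test of the difference itself (leaf 12 minus leaf 4, log2). ER body genes were flagged at adjusted p below 0.05, genes of other lists only if they were also called. Of the 11 other beta-glucosidase genes, 4 had adjusted p below 0.05 and 1 was called. Of all tested probe sets, 8.2% were called. NAI2 had 0.78 (adjusted p = 0.0008821), from -0.69 in leaf 4 and 0.09 in leaf 12. JAL22 had 0.70 (adjusted p = 0.0204), from -0.81 and -0.11, and JAL33 had 0.99 (adjusted p = 0.02221), from -0.13 and 0.86. JAL22 and JAL33 were in the low range on every array of gl1T and Col-0 in both leaves. BGLU31 had -1.41 (adjusted p = 0.001204) and was the only one of the 4 flagged genes to reach a size of 1. Its group means lay below 13 in all 4 groups. Soil on the Col-0 samples of leaf 4 concerns one side of this difference, and its part was not tested. The GAPDH ratios of gl1T leaf 12, from 0.932 to 1.97, concern the other side, and their part was not tested either. No length is stated for gl1T leaf 12, while Col-0 leaf 12 is labelled as about 1 cm. The part of leaf length was not tested.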

How the results depend on the processing

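No called difference changed direction under any alternative. Of 161 differences of single genes, 17 changed sign under at least 1 alternative, all between -0.188 and 0.188 as reported and none called (PYK10 between the blade regions of leaf 7 and JAL23 in sucrose-grown leaves, described without a test, are among them). Differences of dim genes depend on the addend, here 6.139. For PYK10 an addend of 1 gave -3.35 for senescing leaves against leaf 2, -1.42 for cauline leaves against leaf 12, 1.33 for the petiole, -2.14 for gl1T in leaf 4, 1.77 for the difference of the gl1T differences, 5.68 for the short-day rosettes and -2.41 for leaf 4 against leaf 2. An addend 4 times larger gave -2.02, -0.53, 0.55, -1.10, 0.93, 4.70 and -1.64 for these, and -1.59 for leaf 12 against leaf 2, -0.73 and -0.67 for rosette leaf 4 and leaf 12 against leaf 4 at 1 cm, and 3.15 for the sucrose-grown leaves. For JAL23 an addend of 1 gave 3.94 and 3.23 for rosette leaf 4 and leaf 12 against leaf 4 at 1 cm, -2.01 for leaves 1 and 2 against cotyledons, 0.81 for leaf 4 at 1 cm against leaves 1 and 2, 3.14 for set 90 against 87, -1.60 for sucrose-grown leaves against set 87 and 5.22 for rosette leaf 2 against leaves 1 and 2. The larger addend gave 2.91, 2.27, -0.98, 0.31, 2.47, -0.71 and 3.68 for these, and -2.33 for senescing leaves, -1.89 for cauline leaves, 2.61 for the petiole, -0.24 for gl1T in leaf 4 and 0.89 for the difference of the gl1T differences.

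Counts of called ER body genes (of 5) changed as follows with the larger addend: 5 to 3 in senescing leaves, 1 to 0 in cauline leaves and in rosette leaf 4 against 1 cm, 3 to 0 in leaf 4 at 1 cm against leaves 1 and 2, 2 to 1 in rosette leaf 2 against leaves 1 and 2 and 2 to 1 in leaf 4 against leaf 2. With an addend of 1 they were 3 in cauline leaves, 1 in leaf 12 against leaf 4 at 1 cm, 1 in each gl1T comparison and 2 for the difference of the gl1T differences, and rose from 2 to 3 in leaves 1 and 2 against cotyledons, rosette leaf 2 against leaves 1 and 2, set 90 against set 87 and leaf 4 against leaf 2. The moved array gave 0 for rosette leaf 4 against 1 cm and 3 for leaf 4 against leaf 2, and quantile normalization gave 1 for rosette leaf 2 against leaves 1 and 2 and 3 for set 90 against set 87. Leaving out arrays in turn gave 0 to 1 for gl1T in leaf 12 and for the difference of the gl1T differences (JAL33 in both), 1 to 3 for rosette leaf 2 against leaves 1 and 2, 4 to 5 in senescing leaves, 2 to 3 in leaf 4 at 1 cm against leaves 1 and 2, in set 90 against set 87 and in leaf 4 against leaf 2, 3 to 4 for sucrose-grown leaves against leaves 1 and 2, and -1.32 to -0.84 for PYK10 in cauline leaves. The correlation of PYK10 and JAL23 was -0.012 by Spearman and -0.0152 in the 16 continuous-light groups. Both filters on low signal left all counts of called ER body genes as they were.

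The replicate block changed the call of 1 gene, JAL22 in set 90 against set 87, which just reached the required size, so that the count there was 3 with the block and 2 without it. The other counts of called ER body genes did not change. Every array correlated best with its own letter in 4 of 15 comparisons.

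Over all probe sets the larger addend reduced the calls from 3681 to 2450 (leaf 12 against leaf 2), 3866 to 2564 and 723 to 448 (rosette leaf 4 and leaf 12 against leaf 4 at 1 cm), 1821 to 1092 (leaves 1 and 2), 689 to 364 (leaf 4 at 1 cm), 1095 to 529 (petiole), 98 to 24 (blade of leaf 7, 210 with an addend of 1), 624 to 356, 604 to 334 and 1297 to 796 (gl1T in leaf 4, in leaf 12 and their difference), 950 to 501 (set 90), 1140 to 619 and 845 to 458 (sucrose-grown leaves against leaves 1 and 2 and against set 87), 2649 to 1664 (short-day rosettes), 3562 to 2364 (rosette leaf 2 against leaves 1 and 2) and 477 to 232 (leaf 4 against leaf 2). The causes were not tested beyond the addend's own effect on low signals. The 3 arrays per group limit the precision, and the order of groups in the low range is not resolved.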
